A study of Homo sapiens with 6 samples.

Results

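Potassium channel genes were described as the 100 genes of the count table whose symbol begins with KCN, out of 60623 genes kept. Of 118 such symbols, 17 antisense or intronic transcripts (-AS, -IT) and 1 pseudogene were left out. The members comprise 97 protein-coding genes, the antisense RNAs KCNQ1OT1 and KCNQ1DN, and the readthrough transcript KCNK4-TEX40. Bulk RNA sequencing covered 3 libraries labelled shSTN1, whose cells carried a hairpin directed at STN1, and 3 control libraries, whose cells carried a scrambled hairpin. STN1 encodes a subunit of the CST complex, which acts at telomeres and in DNA replication. All 6 are labelled as PANC-1, an established human line from a pancreatic ductal carcinoma, grown in DMEM with serum. The genotype label of shSTN1 replicates 2 and 3 reads STN2 and STN3 knockdown, so grouping followed the titles. The titles call the libraries of each group biological replicates (biol rep). They do not say whether each was a separate culture or whether a group is 1 clone. The p-values thus rest on library-to-library spread whose source is not described and could be partly technical.

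The libraries held 18813591 to 23336942 counted reads in the shSTN1 group and 17357223 to 20660453 in control. STN1 itself had 303, 306 and 275 reads in shSTN1 libraries, against 387, 346 and 278 in control, a log2 fold change of -0.15 (SE 0.105, edgeR adjusted p = 0.253), so its mRNA did not separate the labels. The check of the labelled cell type divided the groups. Of 12 carcinoma epithelium markers, 10 of the 11 tested were higher in shSTN1 libraries and 1, KLF5, was lower. Their summed level was 5725 to 5886 CPM (counts scaled to a common library size with TMM factors) in shSTN1 libraries and 963 to 1028 CPM in control. Embryonic kidney line markers were listed because earlier results of these data had raised them, so their outcome is no independent check. Of these 9 markers, 8 were lower and PAX2 was higher. Their sums were 85.4 to 89.5 CPM in shSTN1 libraries and 725 to 830 CPM in control. IRS4, the most abundant of these in control, had 3 reads in the shSTN1 group and 20505 in control, and SALL1 had 0 reads in the shSTN1 group. Neuronal markers, which bear on ion channels, were higher for 2 and lower for 4 of 6 tested. The list summed to 55.8 to 59.8 CPM in shSTN1 libraries and 70.9 to 72.5 CPM in control. ELAVL4, not tested, had 0 reads in shSTN1 libraries and 1 in control. These marker lists move with every result below, their part in it was not tested, and hairpin and cell identity cannot be told apart between these groups.

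Potassium channels let K+ leave or enter cells along its gradient and so set the membrane potential, cell volume and the driving force for calcium entry. Voltage-gated (Kv) channels open on depolarization and inward rectifiers (Kir) hold the resting potential or sense ATP. Two-pore-domain (K2P) channels leak, and calcium-activated channels link K+ flow to calcium signals. In exocrine pancreatic ducts, K+ channels sustain the driving force for anion and fluid secretion, and in beta cells the ATP-sensitive Kir channel couples glucose to insulin release. Auxiliary and silent subunits form no working channel alone but alter the gating or surface level of their partners.

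Across the members, which genes supplied the reads differed between the groups more than their total did. Members together took 482 ± 8.93 CPM in shSTN1 libraries and 510 ± 24.0 CPM in control (± is the SD over 3 libraries here and below), with overlapping groups. In such bulk libraries, fewer cells that express a gene and less RNA per cell cannot be told apart. Low counts removed 51 of the 100 members before testing, 12 with no read in any library and 39 with few, and 49 were tested. Of these 49, edgeR's quasi-likelihood test (adjusted p under 0.05, adjusted over all 17451 genes tested) called 43, where it called 74.1% of all genes. Calls higher in shSTN1 libraries numbered 19 (35.6% of all genes) and calls lower 24 (38.5% of all genes). Called differences of at least 2-fold numbered 31 (34.6% of all genes), 11 higher (15.7% of all genes) and 20 lower (19.0% of all genes). The groups did not overlap for 42 members (75.6% of all genes). The median log2 fold change was -0.35 over tested members and -0.03 over all genes.

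The filter shapes these counts. Of the 49, 31 reached 0.497 CPM, the filter's level, in every library, and among these 15 were higher, 13 lower and 3 did not pass. Another 7 reached it throughout the shSTN1 group alone, of which 4 were called, all higher, and 11 throughout control alone, all of them called lower. For a gene that entered through 1 group, entry favours a call in that group's direction, so the share of members called is not read against that of all genes.

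**Figure D1:**
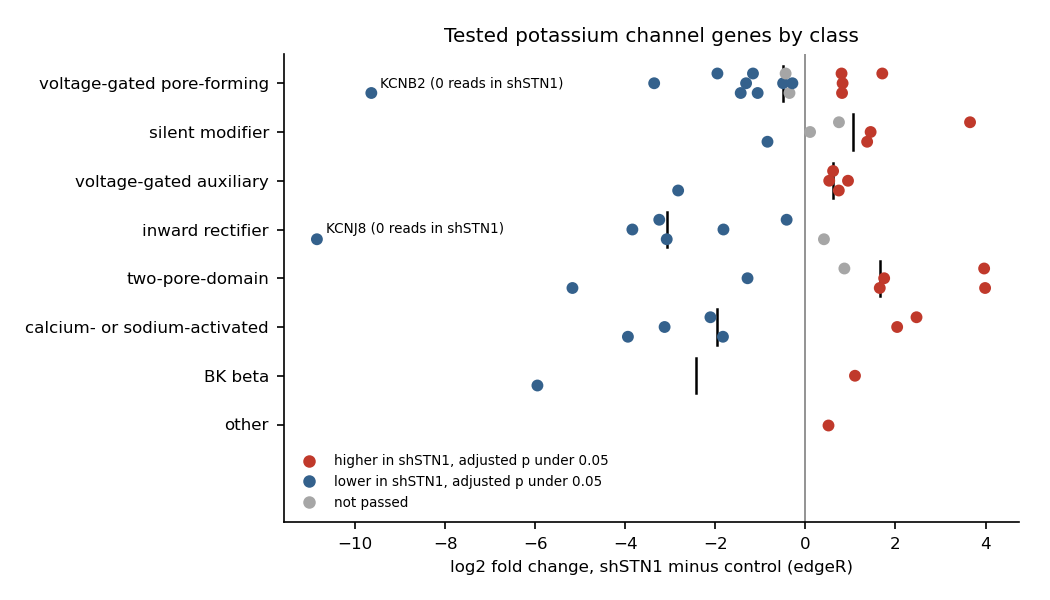
Log2 fold change (shSTN1 minus control, edgeR) of the 49 tested members, 1 point per gene, by class, with the class median as a black bar where a class has more than 1 gene. Inward rectifiers lie at or left of 0 except KCNJ2, which did not pass, and the fitted values of KCNB2 and KCNJ8, with 0 reads in shSTN1 libraries, depend on the prior count.

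The calcium- and sodium-activated class gained the most in percentage points and held 33.9 ± 1.15% of member reads in shSTN1 libraries and 8.82 ± 0.472% in control. KCNMA1, the pore subunit of the large-conductance BK channel, and KCNN4, the intermediate-conductance channel of epithelia and red cells, rose. Both are opened by intracellular calcium. KCNMA1 (ENSG00000156113.23, chromosome 10, positions 76869601 to 77638369 in GRCh38, minus strand) had 137, 129 and 124 CPM in shSTN1 libraries, against 22.9, 24.6 and 23.2 CPM in control. The groups were far apart, with a log2 fold change of 2.47 (SE 0.0506, edgeR adjusted p = 1.67e-23). This gene alone took 27.0 ± 0.786% of member reads in shSTN1 libraries and 4.62 ± 0.27% in control. KCNN4 (ENSG00000104783.14, chromosome 19, positions 43766533 to 43781261, minus strand) had 32.3, 28.9 and 29 CPM in shSTN1 libraries, against 7.56, 6.40 and 8.07 CPM in control. It rose by 2.04 on the log2 scale (SE 0.112, edgeR adjusted p = 1.42e-16), and no control library came near the shSTN1 range.

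The small-conductance SK genes moved the other way. These are the neuronal relatives of KCNN4, opened by calcium through calmodulin. KCNN1 had 2.73, 1.70 and 2.27 CPM in shSTN1 libraries, against 7.75, 8.46 and 7.59 CPM in control (log2 fold change -1.83, edgeR adjusted p = 3.09e-10). KCNN3 stood at 0.279 ± 0.11 CPM in shSTN1 and 2.52 ± 0.37 CPM in control (-3.13), and KCNN2 at 0.188 ± 0.0836 CPM in shSTN1 and 0.821 ± 0.185 CPM in control (-2.11). KCNT2, a sodium-activated channel gene, fell as well (0.131 ± 0.0997 CPM in shSTN1, 2.13 ± 0.507 CPM in control, -3.94). Within the KCNN subfamily 1 gene was thus higher (35.6% of all genes) and 3 lower (38.5% of all genes). Each of the 4 had groups without overlap (75.6% of all genes). KCNN2, KCNN3 and KCNT2 reached the low-count filter in control alone, which favours a lower call. KCNT1, the other sodium-activated member, had 20 reads in shSTN1 libraries and 40 in control and was not tested, and KCNU1 had no read.

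BK beta subunits, which tune the calcium and voltage response of KCNMA1, split. KCNMB4 (chromosome 12, positions 70366276 to 70434292, plus strand), the beta subunit best known from neurons, had 0.244, 0.275 and 0.113 CPM in shSTN1 libraries, against 14.7, 12.8 and 13.9 CPM in control. It fell with a log2 fold change of -5.95 (SE 0.261, edgeR adjusted p = 3.73e-20), and it reached the low-count filter in control alone. KCNMB3 rose, at 3.77 ± 0.293 CPM in shSTN1 and 1.75 ± 0.485 CPM in control (1.10, edgeR adjusted p = 1.3e-04). KCNMB1, the smooth muscle beta subunit, had no read and KCNMB2 had 1. Per kilobase of exon, KCNMA1 stood at 3.65 RPKM and KCNMB4 at 0.0433 RPKM in shSTN1 libraries, whereas in control KCNMA1 was at 0.66 RPKM and KCNMB4 at 2.83 RPKM. By CPM, not divided by length, KCNMA1 exceeded KCNMB4 in both groups (130 and 0.211 CPM in shSTN1, 23.5 and 13.8 CPM in control). The order in control thus rests on the exon length used, 35644 bases for KCNMA1 and 4874 for KCNMB4. LRRC26, a gamma subunit gene of BK channels in epithelia, had too few reads to be tested.

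**Figure D2:**
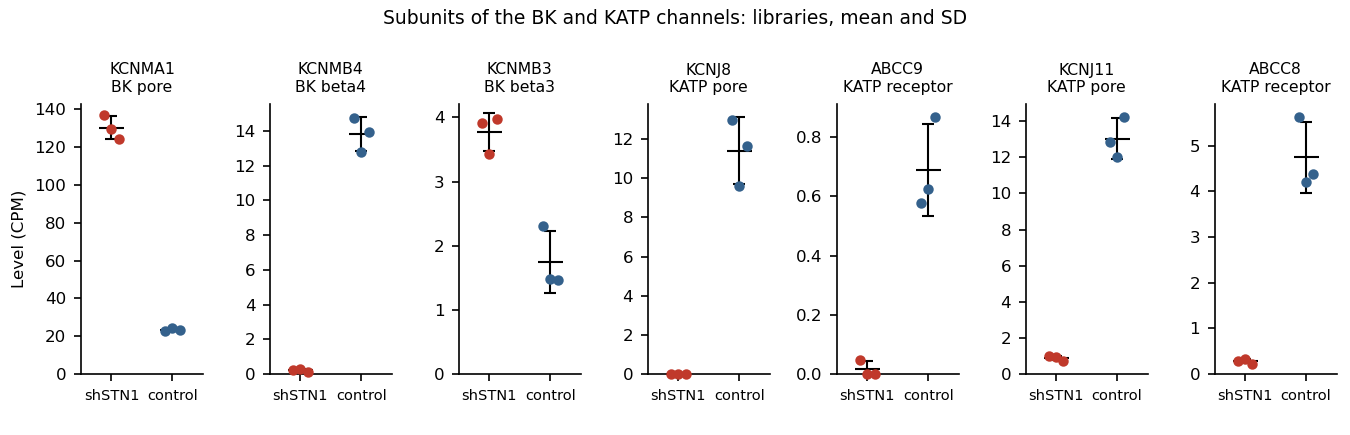
Levels in CPM (TMM-scaled) of BK and ATP-sensitive channel subunit genes in 3 shSTN1 libraries (red) and 3 control libraries (blue), each panel with its own axis from 0, with the mean and SD in black. KCNMA1 and KCNMB3 are higher in every shSTN1 library, and KCNMB4, KCNJ8, ABCC9, KCNJ11 and ABCC8 are near or at 0 there.

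Because KCNMA1 and KCNN4 rose together, the 250 bases before their RefSeq starts (GRCh38.p14) are shown, written along the gene's strand in lower case. The gene positions given above come from GENCODE 29, and both windows lie within them. These bases thus precede the RefSeq start but not the GENCODE 29 start. Capitals mark matches, on either strand, to 3 short motifs, GGGCGG (the GC box), TGANTCA (the AP-1 site) and CATTCC (the TEAD site). Of all 35116 windows of this length in the table, 42.6% hold GGGCGG, 6.57% hold TGANTCA and 11.9% hold CATTCC. Overlapping matches were each counted, and a match is only a stretch of letters.
KCNMA1, chr10:77637809-77638058, minus strand: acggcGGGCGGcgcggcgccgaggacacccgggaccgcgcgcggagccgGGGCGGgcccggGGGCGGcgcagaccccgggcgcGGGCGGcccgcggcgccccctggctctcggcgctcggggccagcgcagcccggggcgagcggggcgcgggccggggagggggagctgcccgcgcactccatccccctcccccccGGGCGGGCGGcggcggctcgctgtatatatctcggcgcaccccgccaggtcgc
KCNN4, chr19:43780974-43781223, minus strand: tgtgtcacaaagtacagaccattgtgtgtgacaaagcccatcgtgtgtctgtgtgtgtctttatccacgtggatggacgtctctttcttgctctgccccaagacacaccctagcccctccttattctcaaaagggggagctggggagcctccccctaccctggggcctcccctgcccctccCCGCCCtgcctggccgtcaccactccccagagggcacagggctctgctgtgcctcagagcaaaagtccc
The windows have little in common in base composition. KCNMA1's holds 46 CpG pairs, 85.6% G and C and 6 matches to GGGCGG, and KCNN4's holds 5 CpG pairs, 60% G and C and 1 match. Neither holds TGANTCA or CATTCC. KCNMA1 has 2 windows in the table, of which the first is shown, and the counts per gene do not tell which start was used.

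Most tested inward rectifiers fell. Of 16 KCNJ genes 7 were tested, 6 of these fell (38.5% of all genes), 1 did not pass and 0 rose. KCNJ8 and KCNJ3 reached the low-count filter in control alone, and KCNJ6, with 16 reads in shSTN1 libraries and 0 in control, was removed by it. Without that filter 1 rectifier was called higher. The class took 3.03 ± 0.103% of member reads in shSTN1 libraries and 13.0 ± 0.546% in control, a larger ratio than that of the calcium- and sodium-activated shares. KCNJ8, the Kir6.1 pore of ATP-sensitive (KATP) channels, had 0 reads in each shSTN1 library, against 270, 215 and 215 reads in control. With a floor of 3 reads over the shSTN1 group it was at least 227-fold lower, a bound that covers counting error only (edgeR adjusted p = 8.93e-19). KCNJ11, the Kir6.2 pore of the beta-cell KATP channel, had 0.977, 0.962 and 0.738 CPM in shSTN1 libraries, against 12.8, 12 and 14.2 CPM in control (log2 fold change -3.84, SE 0.138, edgeR adjusted p = 5.55e-18). Both KATP pores were thus lower (38.5% of all genes), without overlap (75.6% of all genes).

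Their sulfonylurea receptor partners, which lie next to them on the same chromosomes, were lower too. Both receptor genes reached the low-count filter in control alone, which favours a lower call. ABCC8, the receptor that pairs with KCNJ11 in beta cells, stood at 0.28 ± 0.0481 CPM in shSTN1 and 4.74 ± 0.775 CPM in control (-4.04, edgeR adjusted p = 3.99e-13). ABCC9, the receptor of vascular and cardiac KATP channels, had 1 read in the shSTN1 group and 42 in control. That is a ratio of 40.9 (95% exact interval 6.95 to 1652, counting error only).

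The remaining rectifiers varied in size of change. KCNJ4 (Kir2.3) had 0.635, 1.33 and 0.624 CPM in shSTN1 libraries, against 7.12, 6.98 and 11.3 CPM in control (log2 fold change -3.25, edgeR adjusted p = 4.84e-13). KCNJ12 (Kir2.2) had 7.52, 6.32 and 8.06 CPM in shSTN1 libraries, against 22.6, 26.4 and 28.2 CPM in control (-1.82, edgeR adjusted p = 1.28e-14). By CPM it was the most abundant rectifier of the shSTN1 group. KCNJ18, a near-identical copy of KCNJ12, had no read, and reads shared by such copies can be lost or placed on 1 of them, so both values are uncertain. KCNJ3, a G-protein-gated subunit, fell at low levels (0.107 ± 0.104 CPM in shSTN1, 0.886 ± 0.474 CPM in control, -3.08). KCNJ14 was near the threshold (-0.42, edgeR adjusted p = 0.0474), with overlapping groups, and lost its call without shSTN1 replicate 1 (0.103) or 3 (0.153) and without control replicate 2 (0.171) or 3 (0.0931). With all 6 libraries that call was also lost under DESeq2 (adjusted p = 0.0799), limma-voom (0.0616), no filter (0.0551), a filter of 1 CPM in 3 libraries (0.0509) and protein-coding genes alone (0.0575). KCNJ2, the classical Kir2.1, had 0.732 ± 0.0502 CPM in shSTN1 and 0.546 ± 0.1 CPM in control and did not pass (edgeR adjusted p = 0.387).

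The window of KCNJ8 is shown because a gene with 700 control reads had none in the other group (RefSeq, GRCh38.p14, marked as above).
KCNJ8, chr12:21774707-21774956, minus strand: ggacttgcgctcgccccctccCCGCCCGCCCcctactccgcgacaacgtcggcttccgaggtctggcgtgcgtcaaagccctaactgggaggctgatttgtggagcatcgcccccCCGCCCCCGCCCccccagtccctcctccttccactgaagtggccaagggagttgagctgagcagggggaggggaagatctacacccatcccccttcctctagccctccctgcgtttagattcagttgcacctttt
It holds 15 CpG pairs and 4 matches to the GC box on the opposite strand, CCGCCC as printed.

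Two-pore-domain genes, the leak channels, moved in both directions and their share was 14.2 ± 0.739% of member reads in shSTN1 and 10.7 ± 0.683% in control. Of 15 genes 7 were tested, 4 rose (35.6% of all genes), 2 fell (38.5% of all genes) and 1 did not pass. KCNK1, among those that fell, reached the low-count filter in control alone. KCNK6 (TWIK2), a weak rectifier found in epithelia and lysosomes, was the most abundant of the class in shSTN1 libraries. It had 47.6, 50.2 and 46.1 CPM there, against 12.6, 15.3 and 18.0 CPM in control (log2 fold change 1.65, SE 0.153, edgeR adjusted p = 2.16e-15). KCNK1 (TWIK1), a close relative, fell. It had 0.44, 0.412 and 0.624 CPM in shSTN1 libraries, against 18.1, 15.8 and 19.3 CPM in control (-5.18, SE 0.177, edgeR adjusted p = 9.28e-21). Of the pair, KCNK6 was the higher per kilobase in shSTN1 libraries (7.78 RPKM, with KCNK1 at 0.136 RPKM), and in control KCNK1 was the higher (4.90 RPKM, with KCNK6 at 2.48 RPKM).

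KCNK10 and KCNK2, both TREK channel genes, rose, and both reached the low-count filter in shSTN1 libraries alone, which favours a call in that direction. TREK channels respond to stretch, heat and membrane lipids. KCNK10 (TREK2, chromosome 14, positions 88180103 to 88326907, minus strand) had 5.76, 6.73 and 5.56 CPM in shSTN1 libraries, against 0.289, 0.403 and 0.433 CPM in control. Its log2 fold change of 3.99 (SE 0.163, edgeR adjusted p = 1.86e-14) was the highest among tested members with more than 3 reads in each group. KCNK2 (TREK1) had 36 reads in the shSTN1 group and 2 in control, a ratio of 18.5 (95% exact interval 4.76 to 159). KCNK4 (TRAAK), the third of this kind, had 19 reads in shSTN1 libraries and 6 in control and was not tested.

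Acid-sensitive TASK-type genes differed among themselves. KCNK5 (TASK2), known from kidney and secretory epithelia, fell, at 7.49 ± 0.497 CPM in shSTN1 and 18.3 ± 2.86 CPM in control (-1.29, edgeR adjusted p = 2.75e-10). KCNK15 (TASK5), which gives no current alone, rose, at 3.49 ± 0.422 CPM in shSTN1 and 1.05 ± 0.424 CPM in control (1.75, edgeR adjusted p = 1.69e-06). KCNK3 and KCNK9 (TASK1 and TASK3) had at most 33 reads in a group and were not tested. KCNK7 did not pass (0.86, edgeR adjusted p = 0.0735). It would be called higher without shSTN1 replicate 3 (0.0363) or control replicate 3 (0.02).

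The 3 K2P genes with the largest or most abundant differences have unlike upstream windows (RefSeq, GRCh38.p14, marked as above).
KCNK10, chr14:88326913-88327162, minus strand: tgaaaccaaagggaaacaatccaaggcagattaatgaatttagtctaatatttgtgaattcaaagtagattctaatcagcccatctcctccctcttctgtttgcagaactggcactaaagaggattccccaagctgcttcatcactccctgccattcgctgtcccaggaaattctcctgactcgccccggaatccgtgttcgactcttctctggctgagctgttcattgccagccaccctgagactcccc
KCNK6, chr19:38319595-38319844, plus strand: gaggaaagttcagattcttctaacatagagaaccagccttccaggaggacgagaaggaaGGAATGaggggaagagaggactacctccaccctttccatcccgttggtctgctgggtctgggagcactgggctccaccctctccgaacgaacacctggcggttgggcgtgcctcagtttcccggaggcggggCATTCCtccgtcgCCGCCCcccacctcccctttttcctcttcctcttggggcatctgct
KCNK1, chr1:233613856-233614105, plus strand: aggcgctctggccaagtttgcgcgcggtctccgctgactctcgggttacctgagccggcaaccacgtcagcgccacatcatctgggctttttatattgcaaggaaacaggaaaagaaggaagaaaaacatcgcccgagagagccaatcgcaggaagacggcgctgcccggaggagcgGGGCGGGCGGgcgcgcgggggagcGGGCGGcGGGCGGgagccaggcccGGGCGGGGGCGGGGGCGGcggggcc
KCNK10's first window holds 5 CpG pairs and none of the 3 motifs. KCNK6's holds 11 CpG pairs, 1 GC box match and 2 matches to CATTCC, one on each strand. KCNK1's holds 30 CpG pairs and 7 GC box matches, of which only the first 2 overlap, and it runs past the gene's GENCODE 29 start at 233614004. Over the 73 members whose window was examined, the median was 15 CpG pairs for the 14 called higher and 16 for the 16 called lower, where all windows of the table had a median of 11.

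Voltage-gated pore-forming genes were the largest class by count and by reads in control. They took 27.4 ± 0.123% of member reads in shSTN1 libraries and 45.9 ± 0.366% in control. Of 30 genes 15 were tested, 4 rose (35.6% of all genes), 9 fell (38.5% of all genes) and 2 did not pass. Among those that fell, KCNB2, KCNA2 and KCNA7 reached the low-count filter in control alone, which favours a lower call. Calls lower in this class ranged from 6 to 10 over the alternative settings. KCNC4 and KCNC1, Kv3 genes whose fast channels serve rapid firing, fell. KCNC4 had 14.6, 15.3 and 16.5 CPM in shSTN1 libraries, against 55.5, 63.9 and 59.8 CPM in control (log2 fold change -1.96, SE 0.0776, edgeR adjusted p = 1.16e-18). KCNC1 had 0.879, 1.33 and 0.567 CPM in shSTN1 libraries, against 10.3, 10.5 and 8.51 CPM in control (-3.36, edgeR adjusted p = 5.93e-15). Neither gene had overlapping groups (75.6% of all genes had none), and KCNC2 had no read.

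KCNB2, a Kv2 delayed rectifier, fell. It had 0 reads in each shSTN1 library, against 88, 122 and 94 reads in control, at least 98.6-fold lower with the floor of 3 reads over the shSTN1 group (edgeR adjusted p = 7.53e-15). AMIGO1, an adhesion protein that binds Kv2 channels, fell, at 2.78 ± 0.358 CPM in shSTN1 and 9.68 ± 0.691 CPM in control (-1.79, edgeR adjusted p = 3.49e-11).

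KCNQ genes, which carry the M-current of neurons and K+ recycling in epithelia, included 1 that rose. KCNQ3, an M-channel subunit, had no read in any library. KCNQ5, which can also form M-type channels, rose, with 14.8, 18.3 and 14.2 CPM in shSTN1 libraries, against 8.13, 9.84 and 9.27 CPM in control (0.80, edgeR adjusted p = 2.05e-06). KCNQ1, the KCNE-partnered channel of heart and epithelia, had 2.12 ± 0.396 CPM in shSTN1 and 2.9 ± 0.48 CPM in control and did not pass (edgeR adjusted p = 0.102, but 0.0499 without control replicate 2).

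Of the KCNH genes, KCNH4 and KCNH3, which encode ELK-type channels, moved oppositely. KCNH4 had 6.40, 6.37 and 5.16 CPM in shSTN1 libraries, against 1.83, 1.97 and 1.68 CPM in control (1.71, edgeR adjusted p = 5.39e-09). KCNH3 fell, at 2.42 ± 1.00 CPM in shSTN1 and 5.96 ± 0.773 CPM in control (-1.32, edgeR adjusted p = 2.9e-06). KCNH2, the hERG channel of cardiac repolarization, was at the threshold, at 9.10 ± 0.656 CPM in shSTN1 and 11.1 ± 0.699 CPM in control (-0.29, edgeR adjusted p = 0.0492). Its call was lost without shSTN1 replicate 2 (0.186) or 3 (0.0891) and without control replicate 2 (0.0798) or 3 (0.0978). With all 6 libraries it was also lost under DESeq2 (adjusted p = 0.0644), no filter (0.0554), a filter of 1 CPM in 3 libraries (0.0521) and protein-coding genes alone (0.0652). KCND1, a Kv4 channel of fast-inactivating current, rose, at 13.6 ± 2.31 CPM in shSTN1 and 7.78 ± 1.15 CPM in control (0.81, edgeR adjusted p = 8.41e-06).

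Shaker-type KCNA genes were scarce. KCNA2 had 17, 1 and 3 reads in shSTN1 libraries, against 17, 22 and 20 in control (-1.44, edgeR adjusted p = 0.0161). Its first shSTN1 library equalled control, and the call was lost without shSTN1 replicate 2 (0.132) or 3 (0.0598) and without control replicate 3 (0.0637), whereas without shSTN1 replicate 1 the log2 fold change was -3.15. KCNA7 had 0.333 ± 0.0373 CPM in shSTN1 and 0.711 ± 0.195 CPM in control (-1.06, edgeR adjusted p = 0.0449). That call was lost when any library but control replicate 2 was left out, with adjusted p-values of 0.0818 to 0.17, and under DESeq2 (0.105), limma-voom (0.0568) and no filter (0.114). KCNA3, a channel known from T cells, had 25 reads in control and 0 in the shSTN1 group, at least 8.11-fold lower, and was not tested. KCNA1, KCNA4, KCNA5, KCNA6 and KCNA10 had at most 6 reads in a group.

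The silent KCNF, KCNG, KCNS and KCNV subunits, which join Kv2 pores, had 6 of 10 tested. Of these, 3 were higher (35.6% of all genes), 1 was lower (38.5% of all genes) and 2 did not pass. KCNS2 and KCNG2, among those higher, reached the low-count filter in shSTN1 libraries alone. The class took 7.84 ± 0.573% of member reads in shSTN1 libraries and 10.1 ± 0.32% in control. KCNG1 supplied most of its reads in both groups. KCNG1 was the member with the highest level per kilobase in control (4.20 ± 0.459 RPKM in shSTN1, 7.54 ± 0.489 RPKM in control). It had 20.3, 23 and 25.3 CPM in shSTN1 libraries, against 38.5, 40.6 and 43.8 CPM in control (log2 fold change -0.84, edgeR adjusted p = 2.75e-09). KCNS3 rose, at 3.22 ± 0.222 CPM in shSTN1 and 1.25 ± 0.38 CPM in control (1.37), as did KCNG2, at 1.58 ± 0.135 CPM in shSTN1 and 0.582 ± 0.319 CPM in control (1.45). KCNS2 had 41 reads in the shSTN1 group and 3 in control, a ratio of 14 (95% exact interval 4.48 to 70.9). KCNG3 did not pass, at 7.46 ± 0.684 CPM in shSTN1 and 6.96 ± 0.62 CPM in control (0.10, edgeR adjusted p = 0.547), and limma-voom gave a 95% interval of -0.20 to 0.42 for its log2 fold change. KCNF1 did not pass (edgeR adjusted p = 0.0887), though it would without shSTN1 replicate 3 (0.0195) or control replicate 3 (0.0304).

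The auxiliary class joins cytoplasmic partners (KCNAB and KCNIP) with the single-span membrane subunits of the KCNE genes. Of its 13 genes 5 were tested, all of them cytoplasmic partners, with 4 higher (35.6% of all genes) and 1 lower (38.5% of all genes). The lower gene, KCNAB1, reached the low-count filter in control alone. The Kv beta genes, relatives of aldo-keto reductases that bind Kv1 channels, were divided. KCNAB2 had 30.4, 28.2 and 29.7 CPM in shSTN1 libraries, against 20.9, 19.9 and 20.4 CPM in control (0.53, SE 0.0382, edgeR adjusted p = 1.21e-05). KCNAB3 rose too, at 6.63 ± 0.787 CPM in shSTN1 and 3.42 ± 0.387 CPM in control (0.95), and KCNAB1 fell, at 0.241 ± 0.102 CPM in shSTN1 and 1.70 ± 0.11 CPM in control (-2.83, edgeR adjusted p = 5.95e-07). KCNIP3 (0.61) and KCNIP2 (0.74), calcium-binding partners of Kv4 channels such as KCND1, rose alongside it. No KCNE gene was tested, since each had at most 12 reads in a group. KCNE1 and its near-identical copy KCNE1B can share or lose reads.

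KCNQ1OT1, the imprinted antisense RNA within KCNQ1, rose, at 9.94 ± 1.58 CPM in shSTN1 and 7.03 ± 1.02 CPM in control (0.50, edgeR adjusted p = 0.00417). The strand setting of the counting is not given in the sources used here, so reads of KCNQ1OT1 and KCNQ1 cannot be told apart. KCNRG, a regulator of Kv assembly, had 7 reads in shSTN1 libraries and 16 in control, KCNK4-TEX40 had 5 in shSTN1 libraries and 0 in control, and KCNQ1DN had none.

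**Figure D3:**
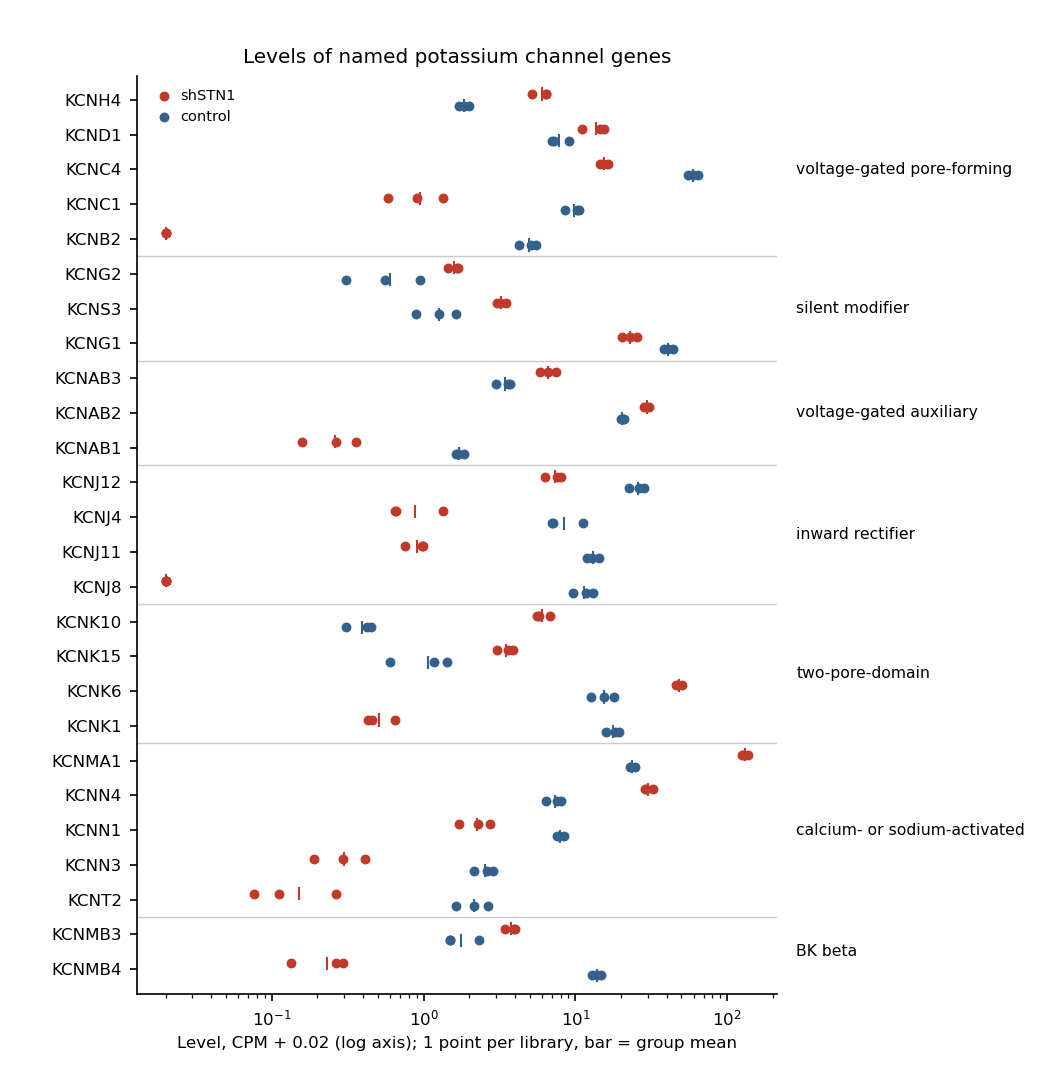
Levels of 26 of the 29 members named by the rule, as CPM + 0.02 on a log axis, 1 point per library with the group mean as a bar, in shSTN1 (red) and control (blue), grouped by class. Points of the groups are apart for each gene shown (75.6% of all genes), but most of these genes were picked for their called differences. KCNB2 and KCNJ8 sit at the left edge in shSTN1 libraries because they had 0 reads.

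Ranked per kilobase, the leading members differed. In shSTN1 libraries KCNN4 (8.82 ± 0.568 RPKM) and KCNK6 (7.78 ± 0.331 RPKM) came first, followed by KCNG1 and KCNMA1. These first 2 are separated by little more than their spread. In control KCNG1 led, and KCNK1, KCNK5, KCNJ8 and KCNJ12 lay between 4.58 and 4.90 RPKM and do not differ beyond their spread. At 1 RPKM or more stood 19 members in shSTN1 libraries and 23 in control, of which 13 were in both sets. RPKM here divides by all annotated exon bases of a gene, which lowers the value of genes with many isoforms such as KCNMA1.

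**Figure D4:**
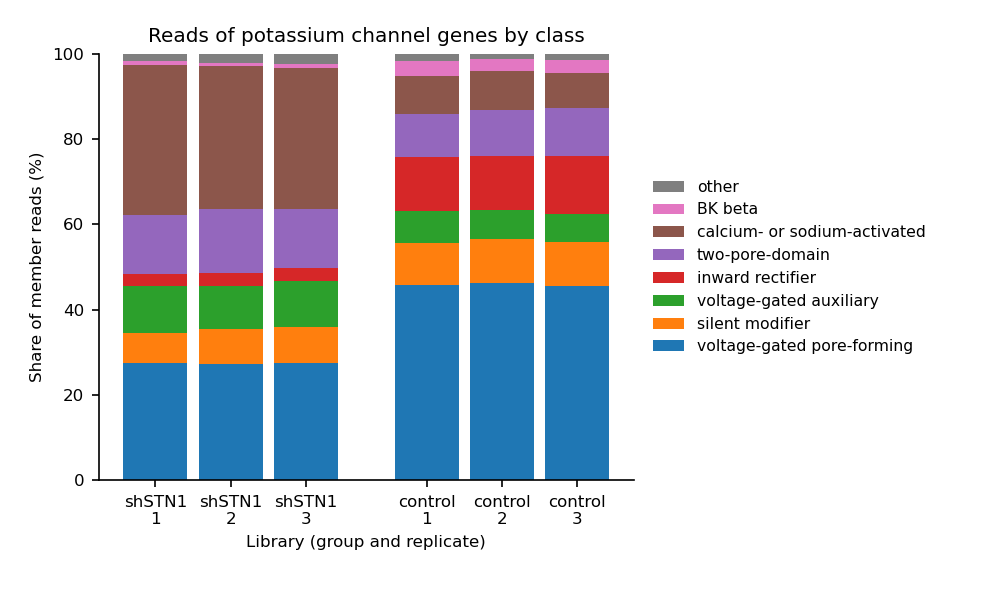
Share of all member reads taken by each class in each library, in percent, shSTN1 libraries on the left and control libraries on the right. The calcium- or sodium-activated class takes about 33.1% to 35.2% in shSTN1 libraries and 8.28% to 9.14% in control, and the voltage-gated pore-forming and inward rectifier classes take smaller shares in shSTN1.

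Position was examined as a feature that the choice of members did not use. For each tested member with at least 5 other tested genes starting within 1 Mb, 42 in all, the median log2 fold change of these neighbours was taken. It was above 0 for 10 of the 16 members called higher, for 3 of the 21 called lower and for all 5 that did not pass. Over all other tested genes it was above 0 for 63.1% of those called higher, 33.1% of those called lower and 49.8% of those that did not pass. KCNK6 lies in a stretch of chromosome 19 where 44 of 49 tested neighbours were higher and 1 lower (median 1.42). KCNQ5 had 10 of 11 neighbours higher (median 1.61), and KCNG2 12 of 18 (1.13). On the lower side, KCNK5 had 5 of 7 neighbours lower (-1.53), KCNB2 6 of 7 (-1.11), KCNJ4 38 of 53 (-0.97) and KCNJ11 14 of 18 (-0.84). KCNN4, also on chromosome 19, had 10 neighbours higher and 10 lower of 37 (median -0.03). KCNK10 had 2 higher and 5 lower of 8 (-0.34), and KCNK1 had 4 higher and 4 lower of 9 (-0.04). KCNMB4 had 0 higher and 4 lower of 7 (-0.27), the same direction as the gene itself. Each of these genes differed far more than the median of its neighbours. KCNMA1 had 3 tested neighbours, each of them higher. Whether regional differences have a part in the members' values was not tested.

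**Figure D5:**
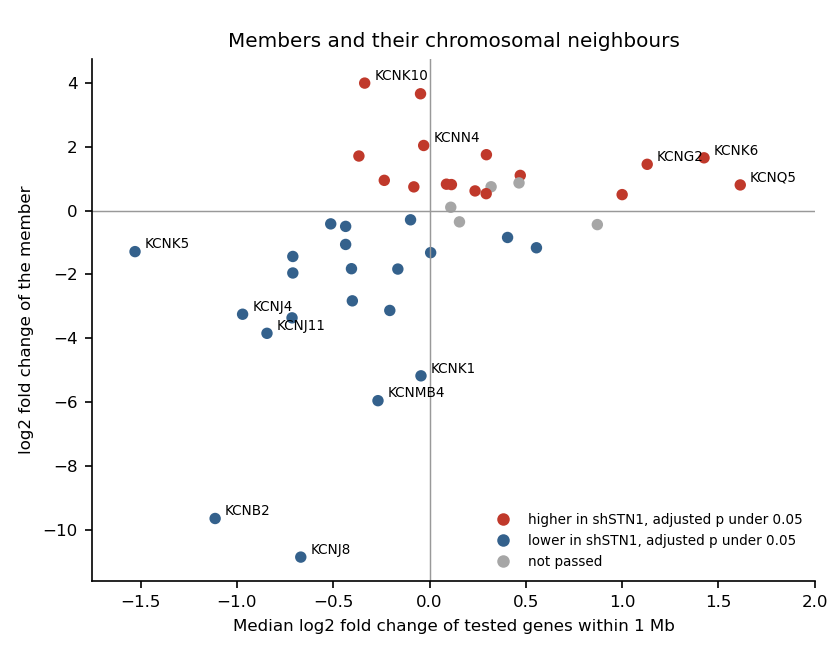
Log2 fold change of each of 42 tested members (vertical) against the median log2 fold change of tested genes starting within 1 Mb (horizontal), coloured by the member's call. KCNK6, KCNQ5 and KCNG2 lie at the upper right beside raised neighbours, KCNK5, KCNB2 and KCNJ4 at the lower left, and KCNK10, KCNN4, KCNK1 and KCNMB4 close to the vertical zero line.

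Other genes of potassium transport were taken from a list of 43 genes, of which 24 were tested, 6 rose (35.6% of all genes), 13 fell (38.5% of all genes) and 5 did not pass (median -0.51, against -0.03 over all genes). Of the 13 that fell, 6 reached the low-count filter in control alone (ATP1B2, FXYD6, ATP12A, ABCC8, ABCC9 and HCN4). The Na+/K+ pump builds the gradient that the channels use. Of its 7 tested subunit and regulator genes, 6 were lower (38.5% of all genes) and 1 higher (35.6% of all genes). Its beta subunit ATP1B2, known from glia, fell to 0.112 ± 0.102 CPM in shSTN1, against 19.8 ± 2.35 CPM in control (-7.33), and the regulator FXYD6 was at -5.07. ATP1B1, the common epithelial beta subunit, rose, at 74.6 ± 2.01 CPM in shSTN1 and 50.4 ± 2.82 CPM in control (0.57).

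Among the cation-chloride cotransporters, 2 of 5 tested genes rose (35.6% of all genes) and 3 did not pass. SLC12A7, which carries K+ and Cl- out of cells, had 437 ± 10.9 CPM in shSTN1 and 130 ± 7.63 CPM in control (1.75, edgeR adjusted p = 8.29e-22), and SLC12A4 was at 0.39. SLC12A2, the inward Na-K-Cl carrier of secretory cells, had 31.8 ± 2.12 CPM in shSTN1 and 31.5 ± 4.26 CPM in control (edgeR adjusted p = 0.903). The proton-potassium pump gene ATP12A had 47 reads in control and 0 in shSTN1, at least 15.2-fold lower, and ATP4A did not pass (edgeR adjusted p = 0.0917). Of the channel partners, AMIGO2 rose (1.28) and ABCC8, ABCC9 and AMIGO1 fell. Of 6 other K+-permeable channels tested, HCN2 (0.77) and the lysosomal channel TMEM175 (0.34) rose, TMEM38A (-1.80), TMEM38B (-0.59) and HCN4 fell, and HCN3 did not pass.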

How the data were processed

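Gene expression was measured by bulk RNA sequencing of total RNA (Trizol extraction, NEBNext Ultra libraries, per the labels' protocols) in 6 libraries labelled PANC-1. The file deposited by the authors holds raw whole-number counts, one row per gene and not normalized, made with cutadapt, FastQC, STAR 2.7.2b and featureCounts 2.0.1 on GRCh38, per the submitters' processing notes. Neither the annotation release nor the strand setting is given in the sources used here, so antisense or overlapping genes and near-identical copies are uncertain. Of 60668 rows, 45 second copies of pseudoautosomal genes were left out. Positions, gene types and exon lengths came from GENCODE 29 (all 100 members matched by identifier).

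Counts were fitted with edgeR 4.0.16 in R 4.3.3: filterByExpr, TMM normalization and the quasi-likelihood test (robust) of shSTN1 minus control over 6 libraries with no other term. Benjamini-Hochberg adjustment ran over 17451 genes, with a threshold of 0.05. Levels are CPM with TMM-scaled library sizes, and RPKM divides these by the union of exons. Each SE belongs to the difference in mean log2 CPM (prior count 2) and does not come from the edgeR fit. A gene at 0 in a group was given 3 reads there, summed over its libraries, as a floor, and those with 1 to 3 reads were given a 95% exact interval of the ratio. The exact permutation test of STN1 (two-sided) gave p = 0.3, the smallest possible p being 0.1. Alternatives were upper-quartile or RLE factors, no filter or 1 CPM in 3 libraries as the filter, only protein-coding genes, the replicate block, DESeq2 1.42.0, limma-voom (limma 3.58.1), an adjusted p under 0.01, and leaving out each library.

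The members and lists were chosen with earlier results of these data known. Named by rule were the 12 highest and 12 lowest log2 fold changes of called members at 1 CPM or more in the higher group, members at 20 CPM or more, members at 0 in a group with 1 CPM or more in the other, and up to 4 genes per companion sub-list. Other members are named because they belong to the family. A few genes enter the counts, shares and medians but are not reported here by name. Marker lists not printed with the results were fibroblast (3 of 4 tested higher, 0 lower), endothelial (0 of 2 higher, 1 lower), leukocyte (1 of 3 higher, 1 lower) and smooth muscle (2 of 4 higher, 1 lower). Tested on counts simulated for shSTN1 against control (16793 genes, 50 changed per size), 84% of 1.5-fold and 92% of 2-fold changes were called. Of 4-fold and 8-fold changes 100% were called, and 4.57% of the 197 calls were false. The changed genes were few and drawn from those above about 1 CPM in control, whereas 74.1% of all genes were called in the data. These rates therefore do not carry over to the data or to members at lower levels. No 2 replicates agreed within counting noise (chi-square divided by its degrees of freedom, 3.02 to 8.89). Plots used matplotlib 3.10.9 (Python 3.11.15).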

Additional observations from a re-analysis of the deposited data

How the results depend on the processing

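Over all alternatives that keep 6 libraries, members called higher numbered 17 to 20, members called lower 18 to 26 and members at least 2-fold different 25 to 35. With each library left out in turn there were 19 to 21 higher, 22 to 25 lower and 30 to 33 at 2-fold, and a STN1 log2 fold change of -0.22 to -0.06, not called in any. Of the 49 tested members, 41 kept direction and call under every alternative run in which they were tested. The other 8 kept their direction and included KCNA2, KCNA7, KCNF1, KCNH2, KCNJ14, KCNK7 and KCNQ1. Without a low-count filter, 1 inward rectifier was called higher, against 0, and 2 silent modifiers lower, against 1. With protein-coding genes alone, 0 genes outside the classes were called, since KCNQ1OT1 was then not tested. Silent modifiers called lower were 1 to 2 over left-out libraries. The replicate block gave 40 called members, all among the 43 called without it, and lost KCNA7 (adjusted p = 0.0821), KCNH2 (0.0608) and KCNJ14 (0.0598). Like-numbered libraries did not deviate together from their group means (r of -0.0123, 0.0171 and -0.0337), so the replicate numbers are no pairing. The median log2 fold change of all tested genes ranged from -0.06 to -0.02 over the alternatives. Depth limits the 51 untested members, which had at most 60 reads over 6 libraries.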

Other observations

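The antisense and intronic transcripts named after potassium channel genes were left out of the members, and most had few reads. KCNMB2-AS1 had 0 reads in each shSTN1 library, against 19, 22 and 12 in control, while KCNMB2 itself had 1 read in all. KCNK15-AS1 had 7, 6 and 2 reads in shSTN1 libraries, against 29, 23 and 11 in control, the opposite order to KCNK15. KCNMA1-AS1 had 8, 7 and 12 reads in shSTN1 libraries, against 1, 1 and 3 in control, the same order as KCNMA1. KCNMA1-AS3 had 2, 5 and 7 reads in shSTN1 libraries, against 0, 1 and 0 in control. KCNIP2-AS1 had 23, 29 and 7 reads in shSTN1 libraries, against 28, 17 and 15 in control, with overlapping groups. Without a known strand setting, reads of these transcripts and of the genes they overlap cannot be told apart.

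Among members with too few reads to be tested, KCNJ1, the renal outer medullary channel, had 1, 0 and 1 reads in shSTN1 libraries, against 12, 11 and 4 in control. KCNJ6, a G-protein-gated subunit, had 3, 10 and 3 reads in shSTN1 libraries, against 0 in each control library. KCNV2, a silent subunit known from photoreceptors, had 2, 6 and 1 reads in shSTN1 libraries, against 15, 22 and 4 in control. KCNH5 had 1, 0 and 0 reads in shSTN1 libraries, against 7, 5 and 6 in control. These genes were picked after their values were seen.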
